A study of Mus musculus with 30 samples.

Results

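This section describes 8 genes of basophils and mast cells, Mcpt8, Prss34, Cpa3, Hdc, Fcer1a, Ms4a2, Cd200r3 and Gata2, in cultures of dendritic cells grown from mouse bone marrow. The genes were chosen by their levels, as higher in knockout than in wild-type cultures in earlier results of these same libraries. Their differences between genotypes are therefore given as a description with no test. All 8 were found among the 25611 gene rows of the count table, and all 8 passed the filter on low counts that left 14808 gene rows for testing. That filter keeps a gene that is high in only some groups, so passing it is no result about these genes.

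The cultures were grown for 6 to 7 days with FLT3L at 200 ng/ml, a growth factor that drives dendritic cell development. They came from mice with a knockout of Rubcn (KO) or from wild-type mice (WT). The protein Rubcn encodes takes part in LC3-associated phagocytosis, in which autophagy proteins act on a phagosome. In each genotype the cells were left untreated, or were kept for 30 min or 4 h with ovalbumin (OVA) or with apoptotic Jurkat cells. Jurkat is a line from a human T-cell leukaemia. There are 10 groups of 3 libraries, 30 in all. The labels do not say whether the 3 libraries of a group came from separate mice, so p-values measure only the spread between these libraries, which may be technical. The labels call the cells dendritic cells and name no sort, so a culture can hold other bone marrow cells.

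Total counts ran from 9.73 M, in KO library 3 of 30 min OVA, to 51.6 M, with a median of 44.9 M. Levels are given as CPM, a gene's counts per M counts of the library, on library sizes scaled with TMM, a method that centres the bulk of the genes. In untreated cultures Rubcn itself read 72.8 ± 2.74 CPM for KO and 98.9 ± 4.96 CPM for WT (SD, n = 3), and no KO library reached the WT range of its condition. Rubcn counts over the whole gene check the labels only in part, since a deletion can leave a transcript.

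Basophils and mast cells are granulocytes that bind IgE through the high-affinity receptor FcεRI and release histamine and proteases when the bound IgE is cross-linked. FcεRI is built from an alpha chain that holds IgE, a beta chain that amplifies the signal and a pair of gamma chains. Both cell types arise from bone marrow progenitors that express the transcription factor GATA2. Basophils and mast cells differ in their granule proteases. Mcpt8 is known as a basophil protease in the mouse, while chymases such as Mcpt4 and Cma1 and the tryptases Tpsb2 and Tpsab1 mark connective tissue mast cells.

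GATA factors bind DNA at sites with a GATA core, so the 250 bases before each gene's start were searched for GATAA on both strands. The RefSeq promoter table (GRCm38.p6) held a promoter for all 8 genes. At least 1 GATAA was found for 5 of the 8, Prss34, Cpa3, Fcer1a, Ms4a2 and Cd200r3, and in 22.6% of 32851 promoters of the same length. The G and C bases made up 52.4%, 44.4%, 42.4%, 38.8% and 42.0% of these 5 in that order, beside a median of 52.4% over all promoters. Without a match, Mcpt8 was at 48.4%, Hdc at 48.8% and the Gata2 promoters at 67.2% and 74.0%. The part of base makeup in the number of matches was not tested. These 5 promoters are shown because they hold the match. Each runs 5′ to 3′ towards the gene's start, with GATAA, or TTATC where the match lies on the other strand, in capitals.
Prss34, chr17:25298144-25298393, + strand: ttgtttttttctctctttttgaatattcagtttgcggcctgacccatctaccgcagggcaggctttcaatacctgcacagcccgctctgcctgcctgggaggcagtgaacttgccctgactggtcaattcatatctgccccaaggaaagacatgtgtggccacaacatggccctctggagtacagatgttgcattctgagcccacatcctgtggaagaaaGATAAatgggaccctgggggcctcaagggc
Cpa3, chr3:20242182-20242431, - strand: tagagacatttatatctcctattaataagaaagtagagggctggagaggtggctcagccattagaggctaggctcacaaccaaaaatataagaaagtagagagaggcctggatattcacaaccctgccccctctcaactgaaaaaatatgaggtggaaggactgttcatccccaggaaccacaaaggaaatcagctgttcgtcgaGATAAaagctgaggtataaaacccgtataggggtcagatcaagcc
Fcer1a, chr1:173227230-173227479, - strand: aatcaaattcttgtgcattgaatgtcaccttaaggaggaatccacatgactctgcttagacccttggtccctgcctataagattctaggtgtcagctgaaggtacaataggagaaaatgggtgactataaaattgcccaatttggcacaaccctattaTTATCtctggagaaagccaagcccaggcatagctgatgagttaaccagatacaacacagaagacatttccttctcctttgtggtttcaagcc
Ms4a2, chr19:11623720-11623969, - strand: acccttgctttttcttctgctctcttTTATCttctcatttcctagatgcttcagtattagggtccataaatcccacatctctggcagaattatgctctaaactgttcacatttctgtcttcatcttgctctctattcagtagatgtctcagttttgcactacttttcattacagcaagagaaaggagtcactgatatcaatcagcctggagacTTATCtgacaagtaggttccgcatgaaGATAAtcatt
Cd200r3, chr16:44943428-44943677, + strand: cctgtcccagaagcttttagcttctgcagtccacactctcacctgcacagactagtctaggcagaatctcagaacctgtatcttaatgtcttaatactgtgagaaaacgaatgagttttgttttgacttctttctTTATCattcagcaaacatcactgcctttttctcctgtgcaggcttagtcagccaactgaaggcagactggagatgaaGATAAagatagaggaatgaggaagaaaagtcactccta

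In Prss34 the match lay 30 to 26 bases before the start, and in Cpa3 45 to 41 bases before it, both on the gene's own strand. Fcer1a had 1 match on the other strand, 92 to 88 bases before the start. Ms4a2 held 3 matches, at 224 to 220 and 37 to 33 bases on the other strand and at 10 to 6 bases on its own. Cd200r3 held 1 on the other strand at 115 to 111 bases and 1 on its own at 38 to 34 bases. None was found in the same window of Mcpt8, of Hdc or of either of the Gata2 promoters in the table. The general E-box pattern CANNTG was found for 6 of 8 genes and in 66.2% of all promoters. TGTGGT, the core that RUNX factors bind, was found for 3 of 8, Mcpt8, Cpa3 and Fcer1a, and in 14.0% of all promoters. TTCNNNGAA, the STAT pattern, was found for 0 of 8 and in 7.02% of all. No GATAA match overlapped a match to another of these patterns. A match is a run of letters, not a measured binding site.

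The 3 granule proteases were the most abundant of the 8 genes in untreated KO cultures per length of exon. Prss34, a serine protease of basophils, stood at 28.6 CPM per kb of exon in KO and 10.4 in WT. Mcpt8 stood at 17.1 CPM per kb in KO and 3.58 in WT. Cpa3, a carboxypeptidase stored in the granules of mast cells and basophils, was at 7.05 CPM per kb in KO and 2.73 in WT. The other 5 genes lay between 0.335 CPM per kb (Cd200r3) and 1.34 CPM per kb (Fcer1a) in KO, and between 0.149 and 0.484 CPM per kb in WT. Together the 8 genes came to 78.4 ± 16.8 CPM in untreated KO and 26.7 ± 3.29 CPM in untreated WT cultures. They are thus a small part of the RNA in either genotype. These are bulk samples, in which fewer cells of a type and less RNA per cell cannot be told apart.

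Mcpt8 (chr14:56082164-56085197 on mm10, minus strand, Entrez 17231) read 12.6, 20.5 and 18.2 CPM in the 3 untreated KO libraries and 3.41, 4.08 and 3.22 CPM in the 3 untreated WT libraries. The lowest KO library was far above the highest WT library. The KO against WT difference was 2.26 on the log2 scale (SE 0.174). Over all 15 libraries of a genotype, Mcpt8 ran from 12.6 to 25.6 CPM in KO, with a median of 16.3, and from 2.61 to 4.92 CPM in WT, with a median of 3.57. No treated WT library reached the KO range.

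Prss34 (chr17:25298394-25300161, plus strand, Entrez 328780) read 26.1, 40.9 and 37.7 CPM in untreated KO and 10.7, 14.6 and 12.7 CPM in untreated WT libraries. The difference was 1.46 on the log2 scale (SE 0.153). Across all 15 libraries of each genotype it ran from 26.1 to 53.1 CPM in KO and from 9.81 to 21.1 CPM in WT. Cpa3 (chr3:20215616-20242181, minus strand, Entrez 12873) read 7.85, 12.4 and 11.8 CPM in untreated KO and 3.43, 5.22 and 3.78 CPM in untreated WT libraries, a difference of 1.37 (SE 0.207). KO library 1 was the lowest untreated KO library for all 3 proteases, and it still lay above every WT library.

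Hdc (chr2:126593660-126618678, minus strand, Entrez 15186) encodes histidine decarboxylase, the enzyme that makes histamine. It read 2.81, 3.98 and 3.31 CPM in untreated KO and 1.31, 1.47 and 2.04 CPM in untreated WT libraries. Its difference of 1.06 on the log2 scale (SE 0.191) was the smallest of the 8 in untreated cultures.

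The alpha and the beta chain of FcεRI are both among the 8 genes. Fcer1a (chr1:173221271-173227229, minus strand, Entrez 14125), the IgE-binding alpha chain, read 1.11, 1.29 and 1.62 CPM in untreated KO and 0.312, 0.431 and 0.163 CPM in untreated WT libraries. The difference was 2.15 on the log2 scale (SE 0.307), close in size to that of Mcpt8 but with a wider error. Fcer1a was the thinnest of the 8 in reads, with 8 to 81 counts per KO library and 5 to 20 per WT library. Ms4a2 (chr19:11615521-11623719, minus strand, Entrez 14126), the beta chain, read 2.83, 4.19 and 3.81 CPM in untreated KO and 1.51, 1.44 and 1.12 CPM in untreated WT libraries, a difference of 1.41 (SE 0.181).

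Cd200r3 (chr16:44943678-44981380, plus strand, Entrez 74603) encodes an activating receptor of the CD200 receptor family found on basophils and mast cells. It read 1.81, 2.18 and 2.02 CPM in untreated KO and 0.757, 0.841 and 1.08 CPM in untreated WT libraries, a difference of 1.16 (SE 0.245). Cd200r3 lies on the same chromosome as Rubcn, 12.1 Mb away. Gata2 (chr6:88193891-88207032, plus strand, Entrez 14461) encodes the transcription factor named above. It read 4.37, 6.05 and 5.93 CPM in untreated KO and 2.12, 2.07 and 2.18 CPM in untreated WT libraries, a difference of 1.36 (SE 0.142). The 3 untreated WT values of Gata2 spread less than those of any other of the 8 genes, with an SD of 0.0574 CPM.

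**Figure D1:**
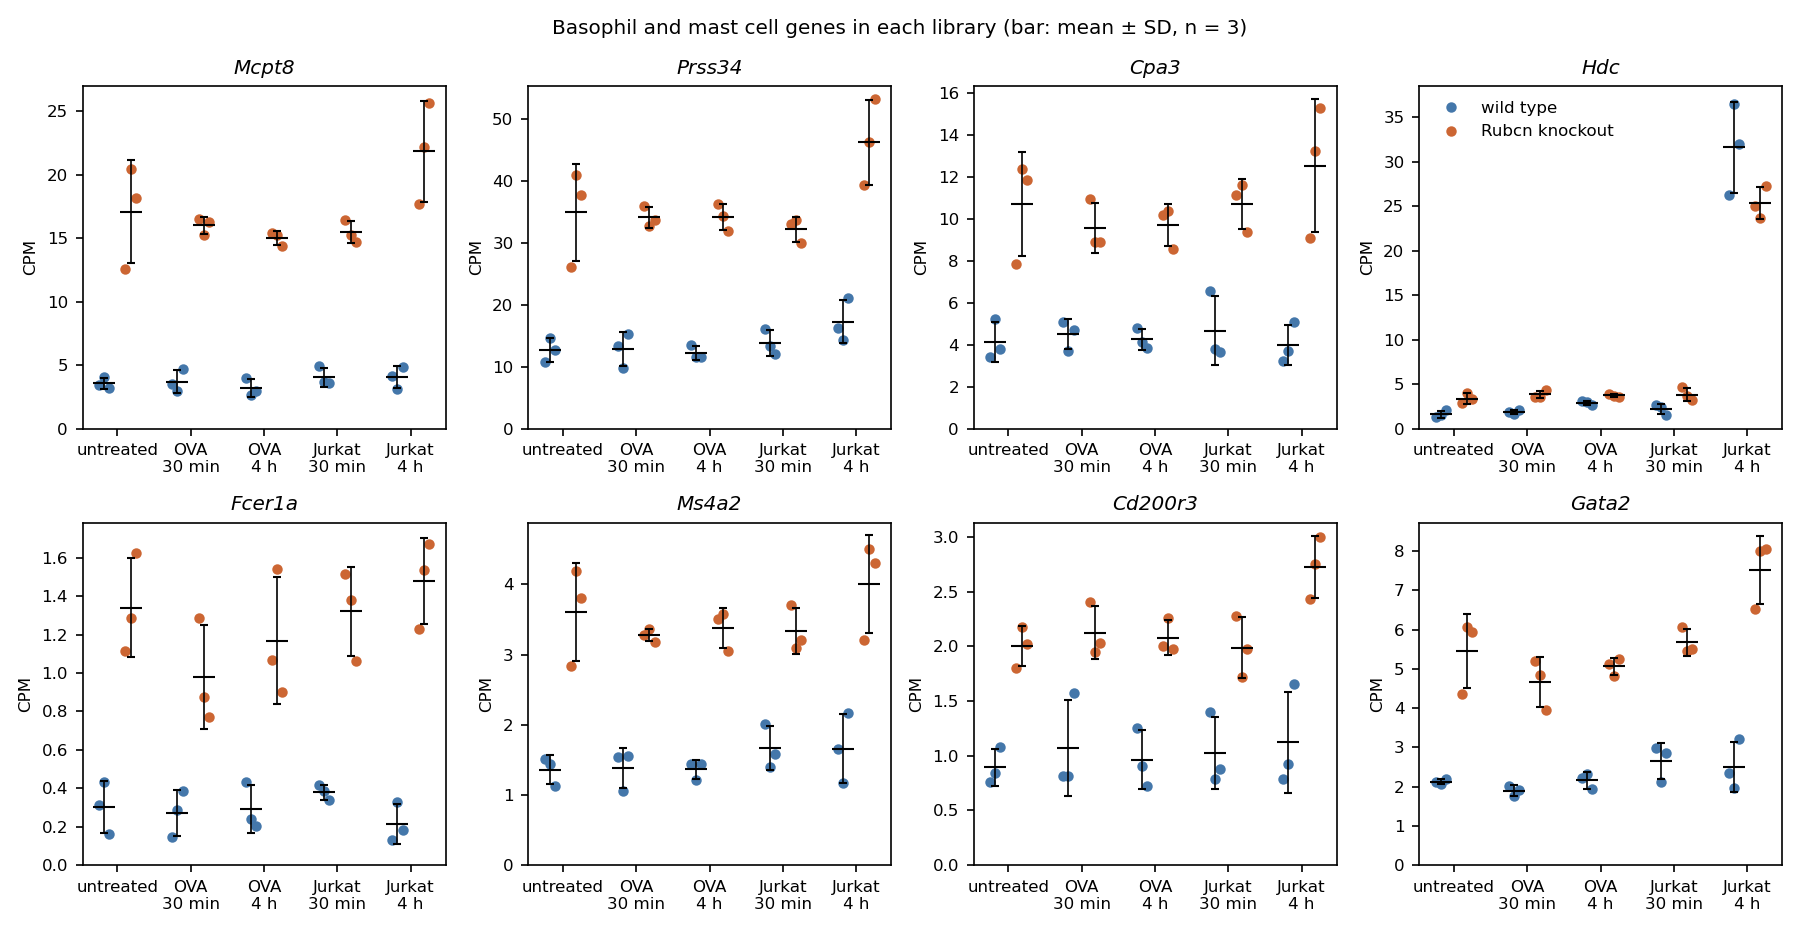
Level of each of the 8 genes in CPM (y axis, 1 panel a gene) in the 10 groups (x axis), with 1 point per library and the mean ± SD of 3 libraries, KO in orange and WT in blue. The KO points of Mcpt8 lie between 12.6 and 25.6 CPM and its WT points between 2.61 and 4.92 CPM, while in the Hdc panel both genotypes reach their highest level with Jurkat cells at 4 h.

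The order of the conditions within a genotype was mostly not resolved. Of 32 pairs of neighbouring conditions in that order, 29 overlapped in KO and 29 overlapped in WT. The 3 KO pairs that stood apart all set 4 h of Jurkat cells above the next condition, for Cd200r3, Gata2 and Hdc. In WT, Hdc with 4 h of Jurkat cells stood above 4 h of OVA, and 4 h of OVA above 30 min of Jurkat cells. The third WT pair was Gata2, higher untreated than with 30 min of OVA.

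With that limit, the group means of Mcpt8 ran in KO from 21.8 ± 3.99 CPM with 4 h of Jurkat cells down to 15.01 ± 0.557 CPM with 4 h of OVA, and in WT from 4.05 ± 0.758 CPM with 30 min of Jurkat cells to 3.20 ± 0.729 CPM with 4 h of OVA. Prss34 ran from 46.2 ± 6.88 to 32.1 ± 2.02 CPM in KO and from 17.2 ± 3.49 to 12.2 ± 1.12 CPM in WT. Cpa3 ran from 12.5 ± 3.17 to 9.57 ± 1.19 CPM in KO and from 4.67 ± 1.64 to 4.00 ± 0.960 CPM in WT. For 7 of the 8 genes, the lowest KO group mean was above the highest WT group mean. Gata2 spanned 7.53 ± 0.867 to 4.67 ± 0.640 CPM in KO and 2.65 ± 0.462 to 1.90 ± 0.133 CPM in WT. Fcer1a spanned 1.48 ± 0.225 to 0.977 ± 0.271 CPM in KO and 0.379 ± 0.0391 to 0.213 ± 0.103 CPM in WT. Ms4a2 spanned 4.01 ± 0.695 to 3.28 ± 0.0910 CPM in KO and 1.66 ± 0.315 to 1.36 ± 0.209 CPM in WT. Cd200r3 spanned 2.73 ± 0.283 to 1.99 ± 0.280 CPM in KO and 1.12 ± 0.464 to 0.893 ± 0.169 CPM in WT.

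For 7 of the genes the difference between genotypes was at least 0.96 on the log2 scale in all 5 conditions, the lowest being Cd200r3 with 30 min of Jurkat cells. Mcpt8 differed by 2.26 untreated, 2.11 and 2.24 with OVA at 30 min and 4 h, and 1.94 and 2.43 with Jurkat cells at 30 min and 4 h, all on the log2 scale. Fcer1a differed by 2.15, 1.93, 2.02, 1.80 and 2.80 in the same order. The median of the 8 genes was 1.39 untreated, 1.30 and 1.27 with OVA, and 1.15 and 1.51 with Jurkat cells, beside a median over all tested genes of -0.01 in untreated cultures. Hdc was the exception, at 1.06, 1.004, 0.36, 0.81 and -0.32 in that order.

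All 3 KO libraries lay above all 3 WT libraries for all 8 genes in 4 of the 5 conditions, and for 7 of 8 with 4 h of Jurkat cells, where Hdc overlapped. Among all tested genes this was so for 13% untreated, 13.8% and 16.3% with OVA at 30 min and 4 h, and 13.7% and 16.1% with Jurkat cells at 30 min and 4 h. It held in each of the 5 conditions for 2.11% of tested genes. For 7 of the 8, without Hdc, every one of the 15 KO libraries lay above every one of the 15 WT libraries, which 0.277% of tested genes (41) showed. Because the genes were chosen for being higher in KO, these shares are background and nothing is read from the counts. Leaving out 4 h of Jurkat cells, Hdc ran from 2.81 to 4.62 CPM in the other 12 KO libraries and from 1.31 to 3.12 CPM in the other 12 WT libraries.

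**Figure D2:**
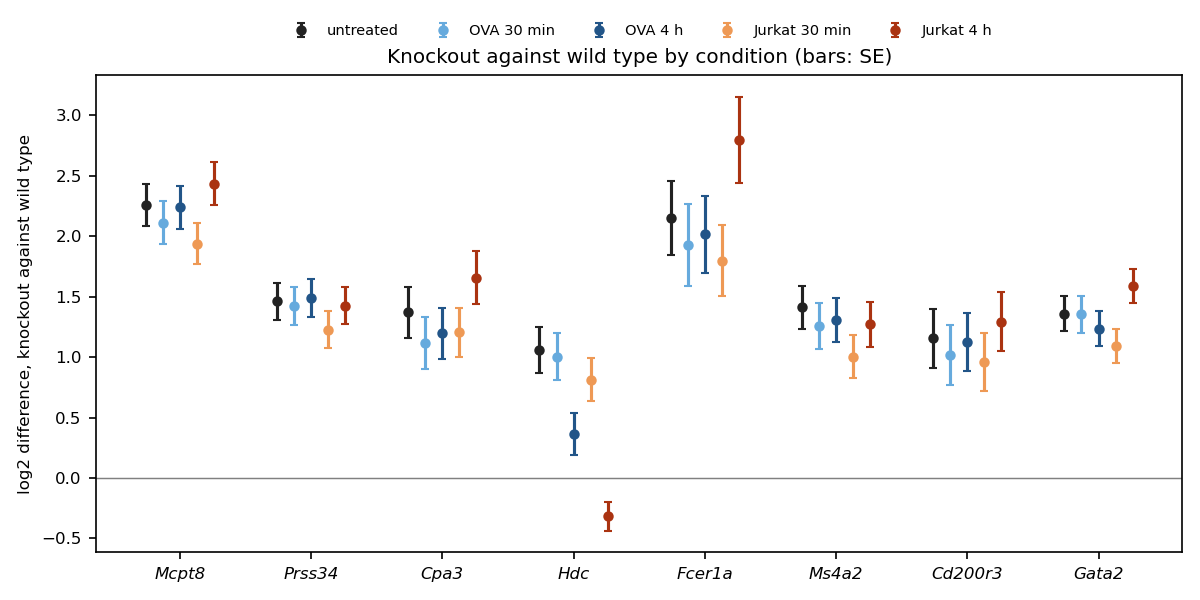
KO against WT difference on the log2 scale with its SE (y axis) for each of the 8 genes (x axis), with 1 colour for each of the 5 conditions, given as a description since this difference chose the genes. Mcpt8 and Fcer1a have the highest values, from 1.80 to 2.80, and Hdc goes from 1.06 untreated to -0.32 with 4 h of Jurkat cells.

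The genes did not all differ by the same factor, and this can be read within a library, where scaling cancels. Counts of Mcpt8 per count of Prss34 ran from 0.427 to 0.5003 in the 15 KO libraries, with a median of 0.481, and from 0.218 to 0.318 in the 15 WT libraries, with a median of 0.276. These ranges do not overlap. Counts of Fcer1a per count of Ms4a2 ran from 0.242 to 0.446 in KO and from 0.0794 to 0.302 in WT. The medians were 0.383 and 0.207, with overlap. Count ratios are not scaled for exon length, 998 bp for Fcer1a and 2813 bp for Ms4a2, so they compare libraries and not amounts of 2 transcripts. Per kb of exon, Fcer1a stood at 1.34 and Ms4a2 at 1.28 CPM in untreated KO. Cpa3 per Prss34 ran from 0.231 to 0.345 in KO and from 0.198 to 0.408 in WT, and Gata2 per Prss34 from 0.117 to 0.184 and from 0.126 to 0.239. These last 2 ratios overlapped widely. The ratios use the genotype difference that chose the genes and were not tested.

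**Figure D3:**
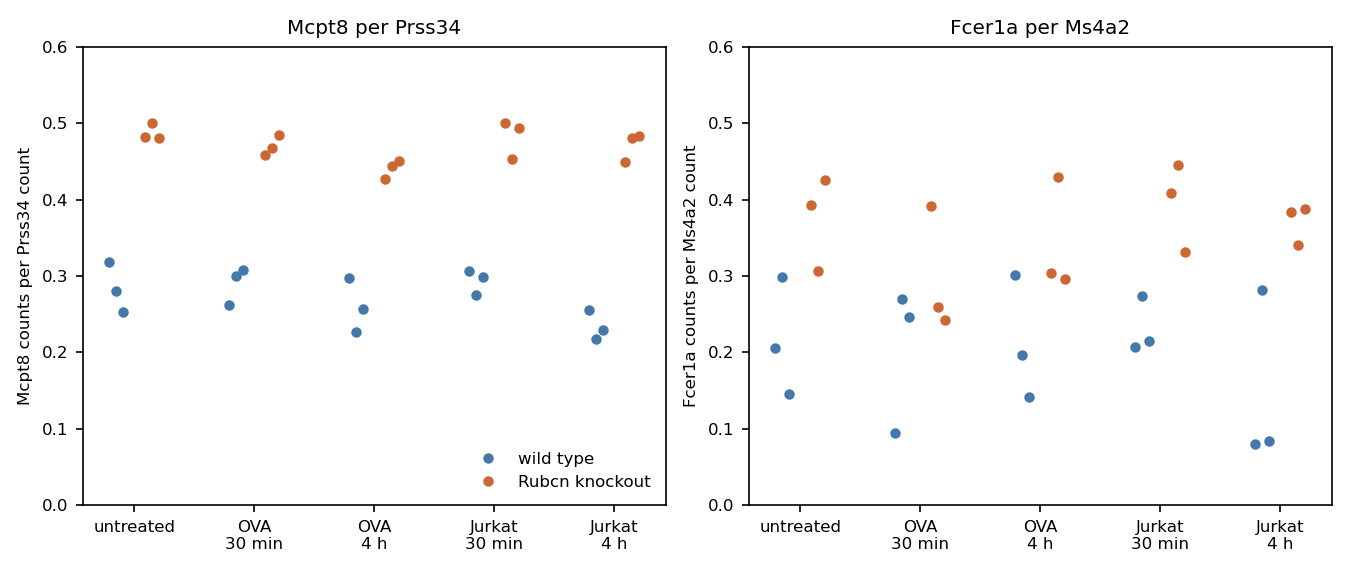
Ratio of counts within a library (y axis) for Mcpt8 per Prss34 and for Fcer1a per Ms4a2, with 1 point per library by group (x axis), KO in orange and WT in blue. Mcpt8 per Prss34 is at least 0.427 in every KO library and at most 0.318 in every WT library, while Fcer1a per Ms4a2 overlaps between genotypes.

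The genes were chosen on genotype and not on a change with treatment, so each treatment was tested against untreated cultures of the same genotype. The untreated and treated libraries compared here did enter that choice, so these tests are not independent of it. edgeR's two-sided quasi-likelihood test was used, and a call needed an FDR, the Benjamini-Hochberg adjusted p over all 14808 genes, under 0.05. The 4 treatments of a genotype share its untreated libraries. With 30 min of OVA, 0 of 8 genes were called in either genotype by edgeR, by DESeq2, or at an unadjusted p under 0.05. Among all tested genes, 5.51% were called higher in WT and 1.88% in KO. No share of genes called lower is given for the comparisons of treatments. With 30 min of Jurkat cells, 0 of 8 were again called by edgeR or DESeq2, beside 14.2% of tested genes higher in WT and 8.72% in KO. Gata2 in WT was at an unadjusted p of 0.0450 (log2 0.32, FDR 0.118), the only one of the 8 under 0.05 there in either genotype.

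With 4 h of OVA, Hdc rose in WT by 0.84 on the log2 scale (SE 0.196, FDR 0.00196). Its WT libraries read 3.12, 2.94 and 2.67 CPM after OVA, all above the 3 untreated values. Hdc was the only 1 of 8 called in WT, where 11.9% of tested genes were called higher. In KO, 0 of 8 were called by edgeR, by DESeq2 or at an unadjusted p under 0.05, beside 5.94% of tested genes called higher. KO Hdc read 3.93, 3.66 and 3.56 CPM after OVA, within the range of its untreated libraries (log2 0.15, SE 0.167, FDR 0.654). Whether the 2 genotypes respond differently was not tested, since the untreated level of Hdc helped to choose it.

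With 4 h of Jurkat cells, Hdc rose in both genotypes and by more than any other of the 8. WT libraries read 26.3, 36.5 and 32.0 CPM, a rise of 4.29 on the log2 scale (SE 0.160, FDR 2.72e-20). KO libraries read 25.1, 23.7 and 27.2 CPM, a rise of 2.91 (SE 0.143, FDR 2.64e-17). The 6 libraries lay far above every other library of the series for this gene, whose next highest was at 4.62 CPM. KO and WT libraries overlapped at 4 h. The rise was larger in WT by value, a difference that was not tested.

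The other changes at this time were smaller. In KO, 4 of 8 were called higher, where 37.5% of all tested genes were, and 5 were by DESeq2 and at an unadjusted p under 0.05. The fifth at that p was Cd200r3, whose 3 libraries all lay above the untreated ones (log2 0.45, p 0.0484, FDR 0.0610). Beside Hdc these were Gata2 (log2 0.47, SE 0.126, FDR 0.0014), Prss34 (0.40, SE 0.140, FDR 0.0106) and Mcpt8 (0.36, SE 0.146, FDR 0.0281). Gata2 read 6.53, 7.997 and 8.06 CPM, above all 3 untreated KO libraries, while Prss34 (39.3, 46.2 and 53.1 CPM) and Mcpt8 (17.7, 22.2 and 25.6 CPM) overlapped with untreated libraries. In WT, 2 of 8 were called, Hdc and Prss34, where 38.9% of tested genes were called higher. WT Prss34 read 16.3, 14.3 and 21.1 CPM, with overlap (log2 0.44, SE 0.166, FDR 0.0169). The median change of the 8 genes was 0.38 in KO and 0.26 in WT, beside -0.03 and -0.02 over all tested genes. In the other 6 comparisons with untreated cultures the median of the 8 lay between -0.11 (KO, 30 min of OVA) and 0.24 (WT, 30 min of Jurkat cells).

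Several of these calls rest on single libraries or on the scaling. The Mcpt8 call in KO was lost without library 2 (FDR 0.0639) or 3 (FDR 0.210) of the Jurkat group, or without untreated library 1 (FDR 0.259). The Prss34 call in KO was lost without Jurkat library 3 (FDR 0.0910) or untreated library 1 (FDR 0.126). In WT it was lost without Jurkat library 3 (FDR 0.169) or untreated library 1 (FDR 0.0954). Hdc in both genotypes and Gata2 in KO kept their calls whichever of the 6 libraries was left out. At 4 h of Jurkat cells TMM factors were 0.765 to 0.842, against 1.03 to 1.07 elsewhere, and scaling to total counts moved the median of all genes to -0.42 in WT and -0.37 in KO. Under that scaling only Hdc stayed called in these 2 comparisons. Prss34 then stood at 0.04 in WT (FDR 0.828) and 0.06 in KO (FDR 0.682), Gata2 in KO at 0.13 (FDR 0.367) and Mcpt8 in KO at 0.02 (FDR 0.921).

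**Figure D4:**
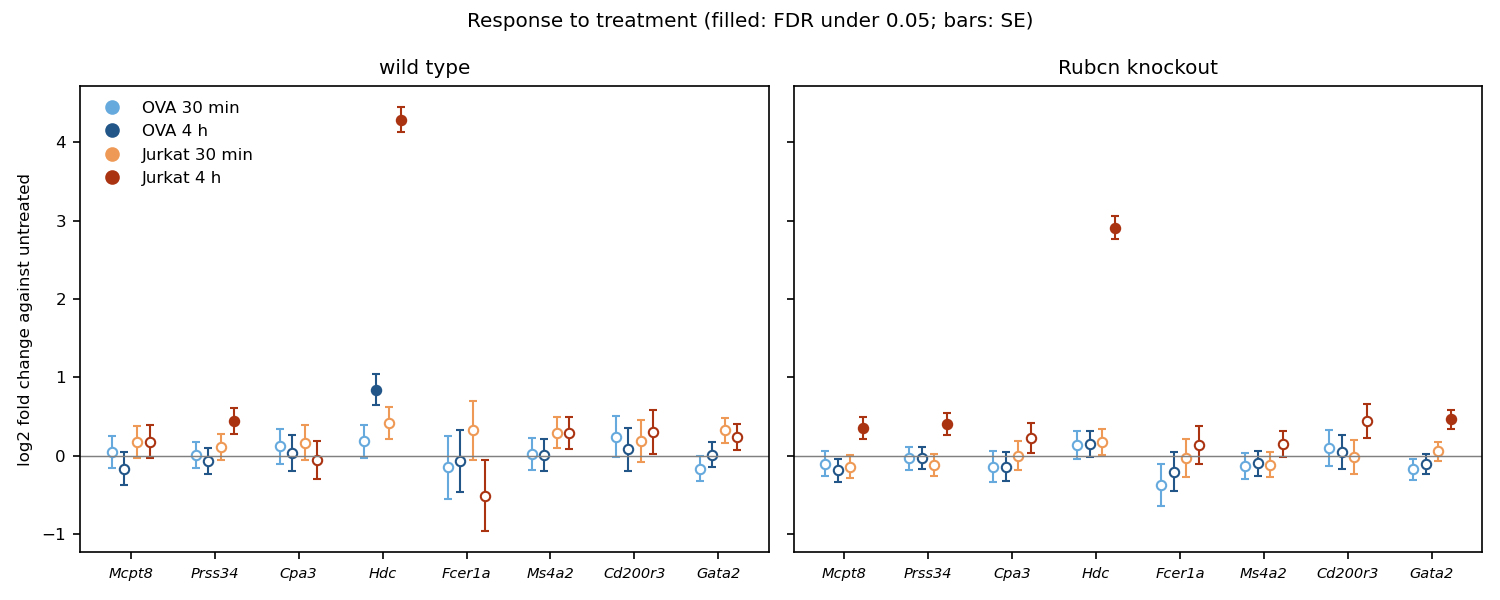
Log2 fold change against untreated cultures of the same genotype with its SE (y axis) for each of the 8 genes (x axis), with 1 colour for each of the 4 treatments, WT and KO in separate panels and filled points for FDR under 0.05 by edgeR. Hdc with 4 h of Jurkat cells stands apart at 4.29 in WT and 2.91 in KO, and the other filled points lie between 0.36 and 0.84.

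Jurkat cells were also compared with OVA at the same time, since cells given either were kept for the same time. At 30 min in WT, 1 of 8 genes was called, Gata2, at 2.98, 2.12 and 2.86 CPM with Jurkat cells and 2.02, 1.75 and 1.92 CPM with OVA (log2 0.49, SE 0.157, FDR 0.0219), beside 11.9% of tested genes higher. That call was lost without Jurkat library 1 (FDR 0.115) or 3 (FDR 0.0900), or without OVA library 2 (FDR 0.0925). At 30 min in KO, 0 of 8 were called by edgeR, by DESeq2 or at an unadjusted p under 0.05, beside 5.3% called higher. At 4 h in WT, 2 of 8 were called, Hdc (3.44, FDR 9.18e-19) and Prss34 (0.50, FDR 0.00773), beside 37.2%. At 4 h in KO, 4 of 8 were called, beside 36.3%: Hdc (2.76, FDR 9.79e-17), Gata2 (0.57, FDR 0.000189), Mcpt8 (0.54, FDR 0.00164) and Prss34 (0.44, FDR 0.00662). The Prss34 call was lost without Jurkat library 3 in KO (FDR 0.0635) and in WT (FDR 0.0949). Under scaling to total counts, Hdc alone stayed called at 4 h.

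The summed level of T-lineage markers was also higher with 4 h of Jurkat cells. The T-lineage list holds 10 markers found in the count table, of which 9 were tested. The summed level of all 10 was 63.6 ± 3.01 CPM in untreated WT and 125.3 ± 14.6 CPM with 4 h of Jurkat cells. In KO the sums were 64.2 ± 3.89 and 93.6 ± 8.96 CPM. Lck, a kinase of T cells, went from 2.84 to 43.4 CPM in WT and from 3.47 to 29.5 CPM in KO. Cd3e, a chain of the T-cell receptor complex, went from 0.0778 to 6.09 CPM in WT and from 0.0819 to 4.08 CPM in KO. In KO the sum rose by no more than Lck and Cd3e together, so the other markers as a group did not rise there. In WT the sum rose by more than Lck and Cd3e did. KO against WT called 1 of 9 T-lineage genes in untreated cultures, Cd6, as higher (log2 0.73, FDR 0.0245), beside 6% of tested genes. That call was lost without KO library 2 or 3 or WT library 1 or 3 (FDR up to 0.1185). With OVA 2 were higher and 1 lower at 30 min, and 1 higher at 4 h. With Jurkat cells 4 and 5 were lower at 30 min and 4 h. In either direction 12.4%, 12.6%, 9.25% and 22.9% of tested genes were called, in that order. The part of human RNA in the 4 h values of Hdc and the other genes was not tested.

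KO against WT was tested for other genes of these cells, which the rule did not use. They came from 4 lists, of granule mediators, FcεRI signalling, receptors and transcription factors, with 53 genes, of which 40 were tested. In untreated cultures 5 were higher in KO and 5 lower, beside 6% of all tested genes higher and 3.97% lower. Leaving out 1 library in turn gave 1 to 4 higher and 2 to 5 lower. The median of the 40 was 0.00 on the log2 scale. In either direction 10 of 40 were called untreated, 8 and 9 with OVA at 30 min and 4 h, and 9 and 14 with Jurkat cells at 30 min and 4 h. The shares of all tested genes were 9.97%, 12.4%, 12.6%, 9.25% and 22.9% in that order.

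Among receptors, Il18r1, a chain of the IL-18 receptor, was higher in KO, at 7.68 ± 0.480 against 4.46 ± 0.268 CPM untreated (log2 0.78, SE 0.0967, FDR 2.01e-06). It was higher in KO in all 5 conditions, by 0.65 to 0.94. Kit, the stem cell factor receptor that mast cells depend on, did not pass untreated (0.08, FDR 0.301), and passed with Jurkat cells at 30 min (0.16, FDR 0.0191, lost without KO library 2 or 3 or WT library 1) and 4 h (0.28, FDR 3.19e-05). Cd200r1, the inhibitory relative of Cd200r3, was lower in KO (-0.31, FDR 0.0339). Among granule and lipid mediator genes, Ctsg, which encodes cathepsin G, was higher in KO at 3.72 ± 0.939 against 2.60 ± 0.0404 CPM (0.52, FDR 0.0374). Alox5, the 5-lipoxygenase that starts leukotriene synthesis, was lower at 28.1 ± 0.280 against 41.9 ± 2.58 CPM (-0.58, SE 0.0598, FDR 9.85e-08). Ltc4s, the leukotriene C4 synthase, was lower too (-0.46, FDR 0.0332).

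In FcεRI signalling, the shared gamma chain Fcer1g, which other Fc receptors also use, was lower in KO at 258 ± 6.23 against 290 ± 6.34 CPM (-0.17, FDR 0.0166), though not with 30 min of OVA (-0.07, FDR 0.340). The adaptor Lat was higher (0.43, FDR 0.0378). Among transcription factors, Tal1 (0.44, FDR 0.0189) and Cebpa (0.16, FDR 0.0459) were higher, the latter not past the threshold with the replicate number as a block (FDR 0.0548) or with DESeq2's size factors (FDR 0.0673), and Lmo2 was lower (-0.17, FDR 0.00378). Gata1, the relative of Gata2, did not pass (-0.08, FDR 0.938). Il18r1, Alox5 and Lmo2 kept their calls without any 1 of the 6 untreated libraries. The call of Ctsg was kept without KO library 1 and lost without any other (FDR up to 0.217), and that of Lat was kept only without KO library 3 (up to 0.186). Those of Ltc4s (up to 0.118) and Cebpa (up to 0.172) were lost without KO library 1 or 3 or WT library 1 or 2, and that of Cd200r1 without KO library 2 or 3 or WT library 1 or 2 (up to 0.286). That of Fcer1g was lost without KO library 2 or 3 or WT library 2 (up to 0.0797), and that of Tal1 without KO or WT library 2 (up to 0.165).

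Defining transcripts of connective tissue mast cells were at or near 0. Over all 30 libraries together, Mcpt4 had 2 counts, Cma1 5, Tpsb2 1, Tpsab1 1 and Mrgprb2 0. Kit stood at 119 to 153 CPM, which many bone marrow progenitors share. Of the eosinophil list, 1 of 5 tested genes was higher in untreated KO, Prg2, which encodes a granule protein of eosinophils that basophils also hold (0.60, FDR 0.00174), and Epx, the eosinophil peroxidase, had 118 counts over 30 libraries. Of 9 neutrophil and granulocyte progenitor genes, 0 were higher and 1 was lower in untreated KO, Ltf (-0.37, FDR 0.00377, and 0.0526 without KO library 1). All 9 were below 0 in all 5 conditions, and 3, 3, 1 and 6 were called lower with OVA at 30 min and 4 h and with Jurkat cells at 30 min and 4 h. The shares of all tested genes called in either direction were 12.4%, 12.6%, 9.25% and 22.9% in that order, and the shares called lower alone cannot exceed these. Untreated, 6% of all tested genes were called higher and 3.97% lower. Of 6 tested megakaryocyte and erythroid genes 0 were called untreated or at 30 min. With 4 h of OVA 1 was higher in KO, and with 4 h of Jurkat cells 1 was lower. Pf4, the platelet factor and the highest of the 6, read 13.4 ± 1.63 CPM in untreated KO against 12.1 ± 1.06 CPM in untreated WT (log2 0.14, FDR 0.352).

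Markers of other cell types also differed between genotypes. Of 7 stromal genes 5 were called higher in KO in each condition, not always the same 5, and 4 of them, Sparc, Dcn, Col1a1 and Col1a2, were called in all 5 conditions. Of all tested genes 9.97% were called in either direction untreated, 12.4% and 12.6% with OVA, and 9.25% and 22.9% with Jurkat cells, at 30 min and 4 h. The shares called higher alone cannot exceed these. Untreated, 6% were higher and 3.97% lower. The stromal list summed to 944 ± 121 CPM in KO and 700 ± 41.5 CPM in WT untreated. Sparc, a matrix protein, read 181 ± 25.4 CPM in KO against 124 ± 8.89 CPM in WT (0.54, FDR 0.000236), and Col1a1, a collagen chain, read 211 ± 18.7 against 160 ± 10.2 CPM (0.40, FDR 0.00274). With 4 h of Jurkat cells the stromal count fell from 5 to 3 without KO library 1, WT library 2 or WT library 3. The plasmacytoid dendritic cell list summed to 2063 ± 72.7 CPM in KO and 2302 ± 16.4 CPM in WT, with 1 of 8 genes higher, Cox6a2 (0.39, FDR 2.74e-05), and 3 lower. The lower ones were Bst2 (-0.35, FDR 8.88e-06), Siglech (-0.25, FDR 0.00356) and Klk1 (-0.50, FDR 0.035), of which Klk1 was lost without library 2 or 3 of either genotype (FDR up to 0.193).

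Of the conventional dendritic cell lists, cDC1 held calls in both directions, while all calls of cDC2 were higher in KO. Of 5 cDC1 genes 1 was higher and 1 lower in untreated KO, with a list median of -0.07. Of all tested genes 6% were higher and 3.97% lower there. Itgae, the CD103 integrin, was higher at 50.1 ± 1.64 against 23.4 ± 0.350 CPM (1.10, FDR 6.33e-10), and Clec9a, a receptor for dead cells, was lower at 117 ± 1.59 against 151 ± 0.748 CPM (-0.37, FDR 1.69e-05). Both were called in all 5 conditions. The shares of all tested genes called in either direction ran from 9.25% with 30 min of Jurkat cells to 22.9% with 4 h of them. Of 5 cDC2 genes 2 were higher, Mgl2 (0.78, FDR 3.66e-05) and Sirpa (0.15, FDR 0.0420). The Sirpa call was kept only without KO library 3 (FDR up to 0.283) and was lost with DESeq2's size factors (FDR 0.0632). The part of such differences in culture makeup in the levels of the 8 genes was not tested.

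The genotype difference can be taken out by setting each library against the mean of its own group. Over 30 libraries, the deviations of log2 CPM from the group mean correlated positively in all 28 pairs of the 8 genes, with a median Pearson r of 0.55 and a median Spearman rho of 0.55. This is a description of libraries that share preparation and depth, with no p. The highest pair was Mcpt8 with Prss34 (0.91) and the lowest Fcer1a with Gata2 (0.02). Pairs with Hdc had a median of 0.36 and the 21 pairs without it 0.64. Against the mean of the other 7, r was 0.90 for Prss34, 0.88 for Mcpt8, 0.87 for Cpa3, 0.75 for Cd200r3, 0.71 for Ms4a2, 0.61 for Gata2, 0.39 for Hdc and 0.29 for Fcer1a. The 3 proteases thus moved together most closely, and Fcer1a, with few reads, least. Without the 2 libraries farthest out, untreated KO library 1 on the low side and WT library 1 of 30 min Jurkat cells on the high side, the median pair was at 0.48 and Mcpt8 with Prss34 at 0.88.

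**Figure D5:**
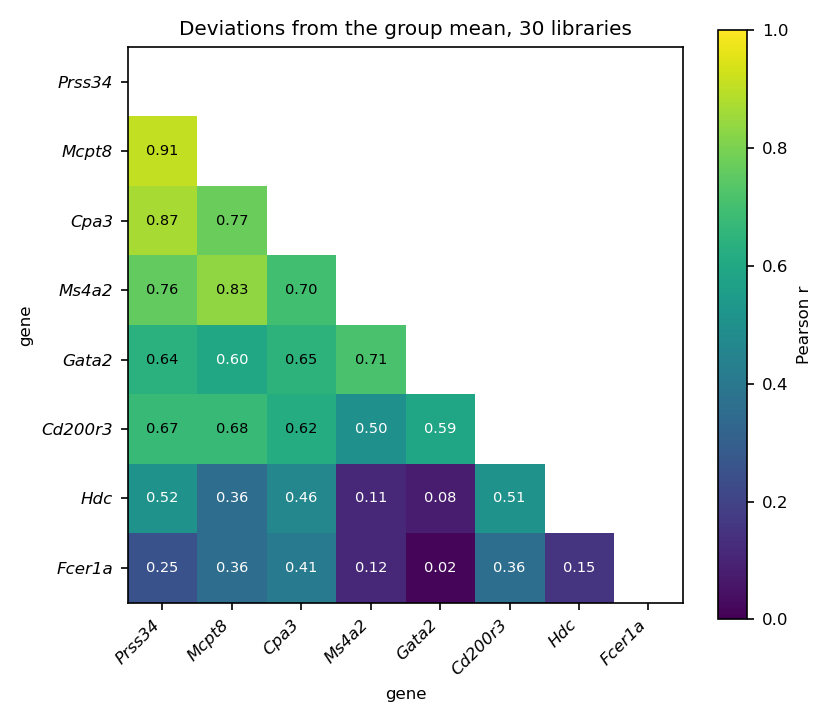
Pearson r between each pair of the 8 genes (rows and columns), computed over 30 libraries from deviations of log2 CPM from the mean of the own group. All 28 pairs are above 0, from 0.02 for Fcer1a with Gata2 to 0.91 for Mcpt8 with Prss34, and the Hdc pairs have a median of 0.36.

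Other genes shared this pattern. Over 12141 genes the r with the mean of the 8 had a median of -0.01, and its 5th and 95th percentiles were -0.49 and 0.45. The 8 genes most like it were Cyp11a1 (0.77), Gabarap (0.75), Osgep (0.74), Chil3 (0.74), D8Ertd738e (0.73), Ska1 (0.73), Brk1 (0.73) and Pfdn5 (0.72). Several of these are widely expressed genes, and the mean deviation of 78 ribosomal protein genes correlated at 0.61 with the same mean. The deviation of total counts correlated at 0.02 with it. The part of such library-wide variation in the likeness was not tested.

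Of those 8, Cyp11a1 was higher in KO in all 5 conditions. It encodes the side-chain cleavage enzyme that starts steroid synthesis from cholesterol. Untreated, it read 3.32 ± 0.777 CPM in KO against 0.888 ± 0.0976 CPM in WT (log2 1.90, SE 0.206, FDR 2.37e-07). With OVA it was higher by 1.62 (FDR 1.02e-05) and 1.55 (FDR 4.09e-06) at 30 min and 4 h, and with Jurkat cells by 1.02 (FDR 0.0011) and 2.19 (FDR 3.59e-08). Chil3, a chitinase-like protein of myeloid cells, was lower in KO untreated (-0.34, FDR 0.0143), a call lost without KO library 1 or WT library 2 (FDR up to 0.152). The other 6 did not pass in untreated cultures.

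The genes around each of the 8 did not share one direction. Within 200 kb, untreated KO against WT called 0 of the tested neighbours of Prss34 (10 tested), Gata2 (3) and Hdc (6). Of 8 tested around Mcpt8, 1 was higher, Ctsg, which lies 14688 bp away in the same protease cluster. Around Ms4a2, in a cluster of related membrane protein genes, 3 of 10 were higher and 3 lower. Around Cd200r3, 1 of 6 was higher and 1, Cd200r1, was lower. Cpa3 and Fcer1a each had 3 tested neighbours, of which 1 was lower. Of all tested genes 6% were called higher and 3.97% lower in untreated KO. Mcpt8, Prss34, Cd200r3 and Ms4a2 have close relatives, and how reads were split between them is not given in the sources used here, so their counts are uncertain to that extent.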

How the data were processed

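The authors deposited raw counts, whole numbers per gene on mm10 in 1 table that pairs each interval with a symbol and an Entrez identifier, per the file headers. Per the submitters' processing notes, STAR 2.5, Subread with featureCounts 1.5.0-p1, and DESeq2 were used. For strand, annotation and reads with several matches, the setting was not given in the sources used here. RNA came from Trizol and a DNase-treated column, and the TruSeq RNA Library Prep Kit v2 was the kit, per the labels. Each count column matched 1 sample title, and 0 count columns had no sample.

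Counts were scaled with TMM, filtered with filterByExpr by group, and fitted in 1 model of 30 libraries with edgeR 4.0.16 (R 4.3.3, limma 3.58.1). The common biological coefficient of variation was 0.0515. A call was an FDR under 0.05 over all 14808 genes. The SE is the absolute log2 fold change over the square root of F. CPM use TMM-scaled library sizes, and CPM per kb divide by the union of exons in GENCODE vM21. Deviations use log2 CPM with a prior count of 2. The fit was also run on simulated data with known changes, with the same spread set for every gene. That run does not measure how well genes with a wide spread or few reads are called.

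The 8 genes and all lists were chosen with earlier results of these data known. All 8 are named throughout. From each other list the text names up to 4 genes by smallest p among those called in untreated KO against WT with at least 1 CPM, defining markers (among them Lck, Cd3e and Epx) for their level whether called or not, and the 8 genes most like the set among those with a mean of at least 1 CPM. Kit and Gata1 were tested and named after their values were seen. Alternatives were DESeq2's size factors, total counts, no filter, at least 5 CPM in 3 libraries, the compared groups alone, DESeq2 1.42.0, the replicate number as a block, and leaving out each library. The check of pairing set each library's deviation from its group mean beside that of the same number. In untreated cultures the 3 pairs of KO with WT correlated at 0.30, 0.17 and 0.12, all over 0.1, so there the numbers may pair libraries. In the other 4 conditions the pairs ran from -0.22 to 0.22, and the labels name no shared mouse or day.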

Additional observations from a re-analysis of the deposited data

How the results depend on the processing

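No result changed direction. Scaling to total counts left 1 of the 8 genes called higher at 4 h of Jurkat cells against untreated in WT and 1 in KO, and 1 in WT and 1 in KO against OVA. Of the 40 listed genes it called 9 higher in KO with 4 h of OVA and 12 with 4 h of Jurkat cells, in place of 5 and 6. At least 5 CPM in 3 libraries called 3 higher untreated and 2 with 30 min of OVA, in place of 5 and 4, among fewer genes tested. A fit of the 2 compared groups alone called 3, 2 and 8 untreated and with OVA at 30 min and 4 h. Of the named calls in untreated cultures, that fit lost Cd200r1 (FDR 0.114), Sirpa (0.0963), Ctsg (0.0927), Cebpa (0.0702), Klk1 (0.0647) and Chil3 (0.0537). Leaving out each library in turn gave 2 to 4 of the 8 genes called higher in KO with 4 h of Jurkat cells and 1 to 3 in WT. It gave 1 to 3 in WT for Jurkat cells against OVA at 4 h, 0 to 1 in WT for 30 min of Jurkat cells, and 0 to 1 in WT for Jurkat cells against OVA at 30 min. Of the listed genes it gave 1 to 4 higher untreated, 1 to 4 with 30 min of OVA, 3 to 5 with 4 h of OVA and 1 to 2 with 30 min of Jurkat cells. Lower calls were 2 to 5 untreated, 2 to 4 with 30 min of OVA and 2 to 4 with 30 min of Jurkat cells. The cause of these changes was not tested.

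With the replicate number as a block, 4 listed genes were called higher in untreated KO in place of 5 (Cebpa lost, FDR 0.0548), 6 with 4 h of OVA in place of 5 and 2 with 30 min of Jurkat cells in place of 3. The other counts of listed genes, and the counts of the 8 genes called in each comparison of treatments, were the same. Of the other genes named, no call in KO against WT was lost under the block. Same-numbered libraries within a genotype had median correlations of 0.02 to 0.15, with single pairs from -0.18 to 0.39. With DESeq2's size factors Cebpa (FDR 0.0673) and Sirpa (FDR 0.0632) were lost. Depth limits Fcer1a most, with as few as 5 counts in a library, and 1 library at 9.73 M.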
